A study of Mus musculus with 12 samples.

Results

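The genes described here are 42 effectors of the antiviral program that type I interferon switches on, listed by gene name. Of these, 40 had a probe set of their own on the array (1 of them, Phf11, under the current symbol Phf11d), out of 18193 genes with one, and 38 passed a filter on dim probe sets and were tested among 12609 genes. Oasl2 and Ifi204 lay below the filter, Isg15 was read only by a probe set that it shares with Gm9706, and Ifi44 was not analysed here. Type I interferons bind the receptor of Ifnar1 and Ifnar2, whose kinases Jak1 and Tyk2 phosphorylate Stat factors. With Irf9 these form a complex that binds the interferon-stimulated response element (ISRE) in front of its target genes. The products of those genes sense foreign RNA and DNA, degrade it, block translation and trap virus particles, and interferon beta is also used as a treatment of multiple sclerosis, for which experimental autoimmune encephalomyelitis is the mouse model.

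The study used 12 Affymetrix Mouse430_2 arrays for 4 cell types taken from C57BL/10.RIII mice, with 3 arrays for each. iFoxA1Treg are regulatory T cells (Treg) titled as induced with interferon beta, with the surface markers CD4hi and PD-L1hi. nFoxA1Treg carry the same surface markers and are titled as induced by neurons, while their cell type field calls them natural. Treg are labelled CD4+ and TGFbeta+, and EncT are CD4+ encephalitogenic T cells, which attack the central nervous system. The labels give no interferon dose or exposure time, no age or sex of the mice, no purity and no source of the replicates. Each p-value therefore reflects the spread of these arrays alone, which may be technical. The members bear on the question of whether interferon target genes differ between the interferon-induced cells and the others, and between both other Treg types and EncT.

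The 3 arrays labelled iFoxA1Treg went against their label. Cd4, which defines the labelled cells, averaged 4.24 ± 0.10 log2 units on the arrays labelled iFoxA1Treg, against 10.44 ± 0.07 in nFoxA1Treg, 10.39 ± 0.06 in Treg and 10.57 ± 0.02 in EncT (n = 3 each, SD). The summed linear signal of the 5 measured T cell markers was 2920 to 3150 on those arrays, against 12427 to 13143 in nFoxA1Treg, 13112 to 13256 in Treg and 13062 to 13775 in EncT. All 5 measured B cell markers summed to 11471 to 12151 on the arrays labelled iFoxA1Treg, against at most 67.2 in nFoxA1Treg, 63.8 in Treg and 121.5 in EncT. The 8 macrophage and monocyte markers summed to 14441 to 14783 there, and the 4 neutrophil markers to 24192 to 24584, against at most 242.1 and 34.0 on any other array. The 5 dendritic cell markers summed to 995 to 1013 there and to 155 to 213 elsewhere. Most of this sum is Ccr7, which T cells also express, at 9.82 log2 units on the arrays labelled iFoxA1Treg. Itgax was not higher there, at 3.20 against 4.18 in EncT. The other dendritic cell markers were higher. Xcr1 differed from EncT by 0.73, and Flt3 and Siglech averaged below the filter level of 4.05 log2 units in the other groups and not on these arrays. Xist, transcribed from the inactive X chromosome, averaged 2.11 on the arrays labelled iFoxA1Treg and at least 11.07 in the other 3 groups, while the Y-linked Eif2s3y averaged 9.66 there and at most 2.30 elsewhere. Of the other measured Y-linked genes, Uty averaged below the filter level in every group but this one, and Kdm5d averaged below it in all groups. These 3 arrays are therefore written of as the arrays labelled iFoxA1Treg, and the counts of called genes among the other 9 arrays are also given without them. Between arrays of 1 group the correlation over probe sets was 0.832 to 0.864, against 0.694 to 0.735 between these arrays and the others. In such mixed RNA, more cells of a type and more RNA per cell cannot be told apart.

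The promoters of the members show what many of them have in common in sequence. In the RefSeq promoter windows (GRCm38.p6, 250 bases before to 50 after the transcription start), 33 of the 42 members had an entry. An ISRE core was searched as GAAA, any 2 bases and GAAA on either strand (TTTC, any 2 bases and TTTC when read on the other). Some genes have several windows, and a gene counted when any of them held a match. The core stood in 14 of these 33 members (42.4%), against 1079 of 27025 genes (3.99%). The element bound by Stat homodimers, TTCNNNGAA, which reads the same on both strands, stood in 8 of 33 (24.2%), against 9.55% of all genes, and 4 members held both (12.1%, against 0.614%). The following 250 bases before the start, each read 5′ to 3′ on the strand of its gene, are those of Ifit1, Ifit3, Isg15, Rsad2 and Oasl1, which are among the members with large differences on the arrays labelled iFoxA1Treg, of Oas3, which was lower in both Treg types than in EncT, and of Lgals3bp, which moved the other way. They were chosen after the values were seen, and capitals mark each match to the ISRE core.
Ifit1 (chr19:34640639-34640888, plus strand): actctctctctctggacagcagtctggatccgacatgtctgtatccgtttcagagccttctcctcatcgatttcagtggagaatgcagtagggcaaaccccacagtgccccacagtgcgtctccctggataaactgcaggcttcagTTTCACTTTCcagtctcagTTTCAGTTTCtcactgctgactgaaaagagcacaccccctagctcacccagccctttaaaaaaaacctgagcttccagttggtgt
Ifit3 (chr19:34583279-34583528, plus strand): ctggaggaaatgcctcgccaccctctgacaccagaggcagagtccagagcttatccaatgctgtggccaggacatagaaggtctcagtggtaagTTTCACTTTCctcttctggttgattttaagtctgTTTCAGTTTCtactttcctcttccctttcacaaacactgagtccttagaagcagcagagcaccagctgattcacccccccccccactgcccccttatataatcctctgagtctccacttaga
Isg15 (chr4:156200819-156201068, minus strand): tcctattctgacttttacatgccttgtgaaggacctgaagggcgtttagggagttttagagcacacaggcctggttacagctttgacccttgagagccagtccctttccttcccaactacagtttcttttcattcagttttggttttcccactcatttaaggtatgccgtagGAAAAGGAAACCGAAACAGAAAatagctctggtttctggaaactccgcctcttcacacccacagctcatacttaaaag
Rsad2 (chr12:26456453-26456702, minus strand): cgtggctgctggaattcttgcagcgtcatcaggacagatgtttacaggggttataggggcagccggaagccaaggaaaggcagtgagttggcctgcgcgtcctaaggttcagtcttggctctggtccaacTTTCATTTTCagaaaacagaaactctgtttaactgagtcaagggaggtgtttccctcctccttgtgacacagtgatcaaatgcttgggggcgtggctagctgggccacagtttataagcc
Oasl1 (chr5:114922990-114923239, plus strand): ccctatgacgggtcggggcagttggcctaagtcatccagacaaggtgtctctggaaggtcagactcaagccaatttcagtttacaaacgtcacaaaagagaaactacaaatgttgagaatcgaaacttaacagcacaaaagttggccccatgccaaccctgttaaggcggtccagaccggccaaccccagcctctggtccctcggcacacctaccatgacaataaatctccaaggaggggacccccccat
Oas3 (chr5:120777660-120777909, minus strand): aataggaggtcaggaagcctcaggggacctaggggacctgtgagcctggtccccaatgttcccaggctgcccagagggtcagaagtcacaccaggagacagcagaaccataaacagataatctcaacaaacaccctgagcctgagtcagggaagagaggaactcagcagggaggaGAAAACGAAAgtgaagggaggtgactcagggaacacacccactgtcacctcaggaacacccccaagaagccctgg
Lgals3bp (chr11:118401960-118402209, minus strand): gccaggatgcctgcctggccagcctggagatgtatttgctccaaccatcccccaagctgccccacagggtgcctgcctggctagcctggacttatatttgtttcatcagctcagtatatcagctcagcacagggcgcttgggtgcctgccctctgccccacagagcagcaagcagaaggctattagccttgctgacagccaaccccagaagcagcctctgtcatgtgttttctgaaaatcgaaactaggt
Ifit1 and Ifit3 each held 2 separate matches, Isg15 held 3 overlapping matches in a single run, Rsad2 and Oas3 held 1, and the Oasl1 and Lgals3bp windows held 0. A match is a run of letters and not a measured binding site. Bst2, Ddx58, Ddx60, Eif2ak2, Ifih1, Ifitm3, Oas1a, Trim21 and Trim30a were the other members with a match.

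**Figure D1:**
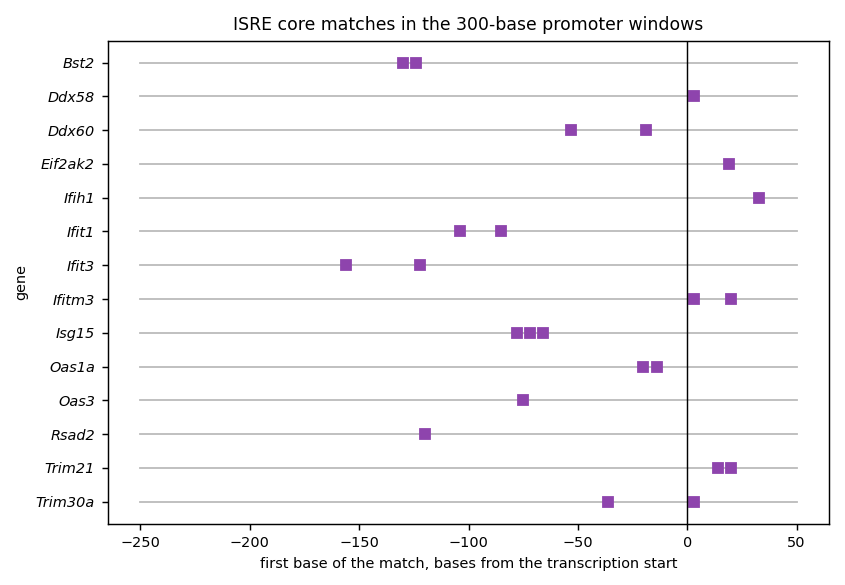
Positions of ISRE core matches in the RefSeq promoter windows of the 14 members that hold at least 1. The x axis is the first base of each match in bases from the transcription start (vertical line), and each square is a match. Each grey line spans the 300 bases of a window, and windows of the same gene share 1 line. Matches lie on both sides of the start.

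The antiviral genes were higher on the arrays labelled iFoxA1Treg than in the other groups, and most by a wide margin. Of the 38 tested members, 36 were higher than in EncT and 1 was lower (limma, adjusted p under 0.05), on a background of 33.9% of all tested genes called higher and 38.3% called lower. With the values as deposited that background was 25.9% higher and 45.7% lower. The median member differed by 2.34 log2 units, against -0.02 over all genes, and 31 of the 38 (81.6%) were at least 2-fold higher and called, against 11.0% of all genes. Against Treg, 35 members were higher and 1 lower (background 35.2% and 38.4%), with a median of 2.65. Against nFoxA1Treg, 36 were higher and 1 lower (background 35.2% and 39.2%), with a median of 2.69. For 35 of the 38 members all 3 arrays labelled iFoxA1Treg lay above all 9 others, as they did for 30.1% of all genes. Ifit1, Ifit3 and Usp18 passed the filter through the arrays labelled iFoxA1Treg alone and so had to be higher there. All 3 are part of the counts and medians above. The 2-fold count, the medians and the count above all 9 others were not redone without them. Of the other 35 members, 33 were higher than in EncT, 32 than in Treg and 33 than in nFoxA1Treg, and 1 was lower in each. Of all 12277 genes that pass the filter on the 9 arrays too, 32.5%, 33.7% and 33.8% were higher and 39.3%, 39.4% and 40.3% lower. The comparisons share the arrays labelled iFoxA1Treg, so they are not independent. The summed B cell, macrophage and monocyte, neutrophil and dendritic cell markers were higher on the same arrays, as given above, and their part in these differences was not tested.

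**Figure D2:**
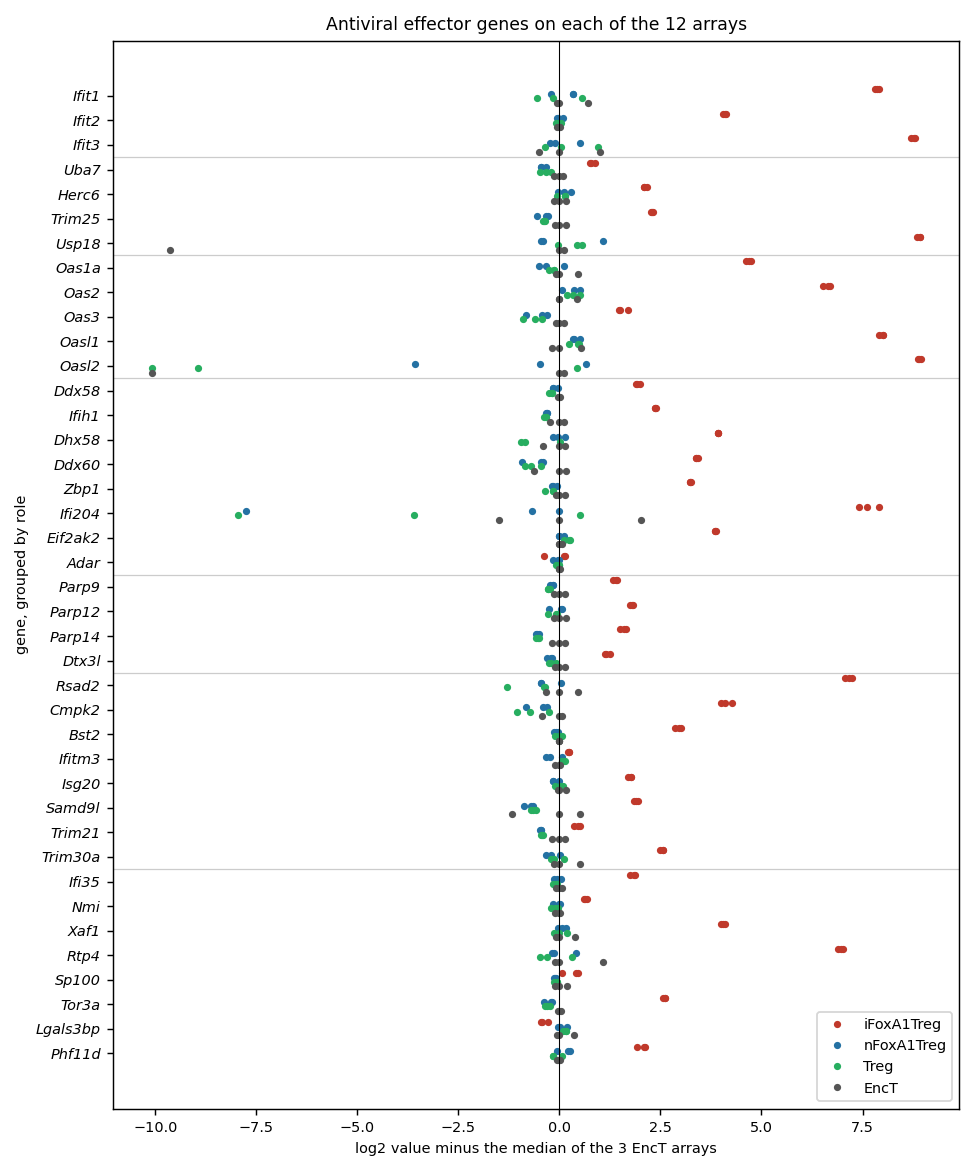
Values of the 40 members with a probe set on all 12 arrays, by role, each as log2 value minus the median of the 3 EncT arrays (x axis, log2 units). Red points are the arrays labelled iFoxA1Treg, blue nFoxA1Treg, green Treg and grey EncT. The red points stand to the right of all others except for Adar and Sp100, where they overlap them, and Lgals3bp, where they lie to the left, and they are close to the others for Ifitm3 and Trim21, and points far below 0 for Usp18, Oasl2 and Ifi204 are probe sets near the floor of the scale.

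The IFIT proteins bind viral RNA and hinder its translation, and all 3 members stood far above the other groups. Ifit1 read 10.70, 10.81 and 10.75 log2 units on the arrays labelled iFoxA1Treg, 3.22, 3.24 and 2.70 in nFoxA1Treg, 3.45, 2.35 and 2.74 in Treg, and 3.61, 2.90 and 2.84 in EncT. Its other 9 arrays overlapped with each other and lay below the filter level of 4.05 log2 units. On the log2(value + 16) scale, which damps dim values, the arrays labelled iFoxA1Treg stood 6.13 above EncT, given with no test because the filter decided it. Ifit3, which stabilises Ifit1 in complex, read 11.50, 11.59 and 11.62 on the arrays labelled iFoxA1Treg, 2.69, 2.58 and 3.33 in nFoxA1Treg, 3.77, 2.47 and 2.85 in Treg, and 2.81, 3.82 and 2.31 in EncT. On the offset scale they stood 6.97 above EncT, likewise with no test. Ifit2, which unlike these was well above the filter level in every group, averaged 11.35 ± 0.04 on the arrays labelled iFoxA1Treg, against 7.26 ± 0.08 in nFoxA1Treg, 7.24 ± 0.06 in Treg and 7.24 ± 0.04 in EncT (n = 3 each, SD).

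ISG15 is a ubiquitin-like protein that Uba7 activates, Herc6 attaches to targets in the mouse and Usp18 removes. The probe set shared by Isg15 and Gm9706 read 12.39, 12.37 and 12.31 on the arrays labelled iFoxA1Treg, 5.83, 5.74 and 5.59 in nFoxA1Treg, 5.63, 5.45 and 5.52 in Treg, and 5.73, 5.52 and 5.75 in EncT. The last 3 groups overlapped, and the probe set was not tested because it cannot be given to 1 gene. Usp18, which also blocks signalling at Ifnar2, read 11.50, 11.58 and 11.59 on the arrays labelled iFoxA1Treg, 2.26, 3.75 and 2.22 in nFoxA1Treg, 3.11, 3.22 and 2.63 in Treg, and 2.78, -6.98 and 2.66 in EncT. EncT replicate 2 sat alone at the floor, so the difference is given on the offset scale, where it was 7.23, with no test for the same reason as for Ifit1. Uba7 differed least of this group, by 0.83 ± 0.08 (SE, limma adjusted p 5.2e-07). Herc6 differed from EncT by 2.10 and Trim25, a ligase that activates the RNA sensor RIG-I, by 2.28.

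The oligoadenylate synthetases make the messenger that activates RNase L on contact with double-stranded RNA. Oasl1, a family member without that activity, read 12.22, 12.33 and 12.33 on the arrays labelled iFoxA1Treg, 4.66, 4.68 and 4.82 in nFoxA1Treg, 4.81, 4.76 and 4.55 in Treg, and 4.14, 4.84 and 4.31 in EncT. The first 3 values stood apart and the other groups overlapped, with a difference from EncT of 7.86 ± 0.15 (limma adjusted p 6.1e-14). Oas2 differed from EncT by 6.48, Oas1a by 4.57 and Oas3 by 1.55. Oasl2 averaged 10.29 on the arrays labelled iFoxA1Treg, and in each other group at least 1 array lay below 0, so no fold is given.

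Among the nucleic acid sensors, the cytosolic RNA helicases Ddx58 (RIG-I) and Ifih1 (MDA5) differed from EncT by 1.95 and 2.42, and Dhx58 (LGP2), which modulates both, by 4.01. Ddx60, a helicase tied to RIG-I signalling, differed by 3.55, Zbp1, a sensor of Z-form nucleic acid that triggers cell death, by 3.21, and Eif2ak2 (PKR), which halts translation, by 3.84. The DNA sensor gene Ifi204 averaged 9.03 on the arrays labelled iFoxA1Treg and at most 1.55 in the other groups, below the filter. Adar, which edits double-stranded RNA and so keeps it from the sensors, was the member that did not pass the test against any group. It read 7.89, 8.39 and 8.38 on the arrays labelled iFoxA1Treg, 8.24, 8.26 and 8.11 in nFoxA1Treg, 8.17, 8.24 and 8.26 in Treg, and 8.26, 8.29 and 8.26 in EncT. Replicate 1 of the arrays labelled iFoxA1Treg was the lowest of all 12 and the other 2 were the highest, with a difference from EncT of -0.05 ± 0.11 (limma adjusted p 0.70). Without that replicate the difference from Treg was 0.16 (limma adjusted p 0.040). The brightest probe set of Adar was at odds with another of the same gene, which averaged 9.07 on the arrays labelled iFoxA1Treg, against 7.55 in nFoxA1Treg, 7.56 in Treg and 7.36 in EncT, a difference from EncT of 1.71 (limma adjusted p 3.3e-10).

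**Figure D3:**
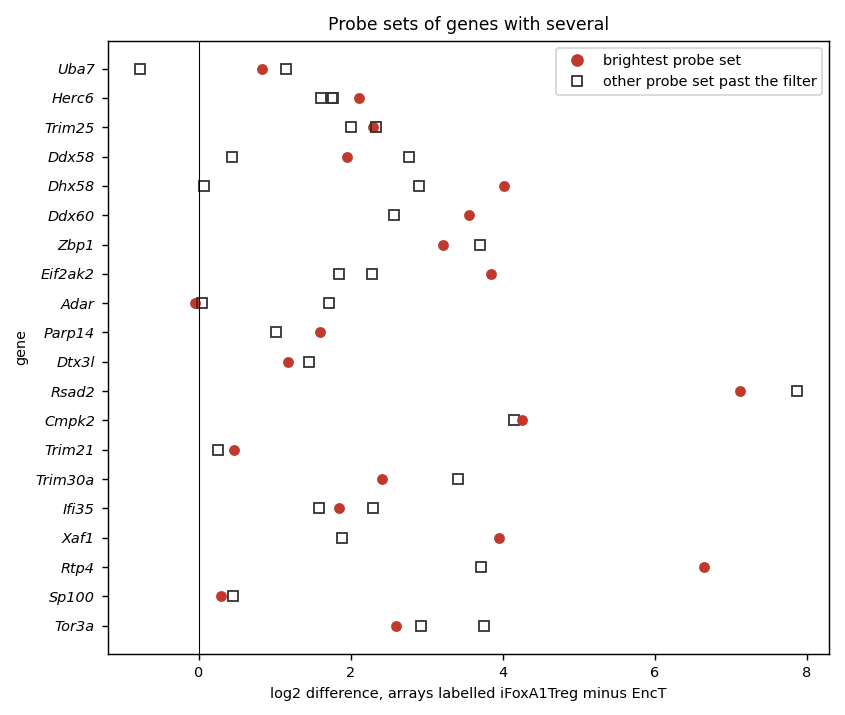
Log2 difference of the arrays labelled iFoxA1Treg minus EncT (x axis) for the members with several probe sets past the filter. Red circles are the brightest probe set, used in the text, and open squares the others. Probe sets of a gene lie on the same side of 0 except for Adar and Uba7, and those of Dhx58, Rtp4, Ddx58, Xaf1, Eif2ak2, Uba7 and Adar span 1.76 to 3.94 log2 units.

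Uba7 had 1 probe set that was 0.77 log2 units lower on the arrays labelled iFoxA1Treg than in EncT, where its brightest was 0.83 higher. Dhx58 had 1 probe set with a difference of 0.07 (limma adjusted p 0.78), against 4.01 for its brightest.

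The ADP-ribosyltransferases Parp9 and Parp14, the related Parp12 and Dtx3l, the ubiquitin ligase that works in complex with Parp9, differed from EncT by 1.17 (Dtx3l) to 1.79 (Parp12). Parp14, Dtx3l and Parp9 follow one another on chromosome 16. Among genes that act on virus directly, Rsad2 (viperin), which makes a chain-terminating nucleotide, read 11.64, 11.75 and 11.83 on the arrays labelled iFoxA1Treg, 4.62, 4.13 and 4.12 in nFoxA1Treg, 3.29, 4.21 and 4.23 in Treg, and 4.58, 4.26 and 5.05 in EncT. The difference from EncT was 7.11 ± 0.25 (limma adjusted p 2.4e-11). Its neighbour on chromosome 12, Cmpk2, a mitochondrial nucleotide kinase, differed by 4.24. Bst2 (tetherin), which holds virus at the cell surface, differed by 2.95, the exonuclease gene Isg20 by 1.70, Samd9l by 2.12 and Trim30a by 2.41.

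Besides Adar, the members with the smallest differences were Ifitm3, Sp100 and Trim21, and Lgals3bp moved down. Ifitm3, which blocks entry of enveloped virus from endosomes, read 11.93, 11.95 and 11.95 on the arrays labelled iFoxA1Treg, 11.38, 11.48 and 11.76 in nFoxA1Treg, 11.83, 11.77 and 11.78 in Treg, and 11.71, 11.73 and 11.59 in EncT. The arrays labelled iFoxA1Treg lay above all others, yet only by 0.27 ± 0.08 against EncT (limma adjusted p 0.0065), by 0.41 against nFoxA1Treg (limma adjusted p 3.2e-04) and by 0.15 against Treg (limma adjusted p 0.092). Trim21, the cytosolic antibody receptor, read 9.31, 9.41 and 9.45 on the arrays labelled iFoxA1Treg, 8.48, 8.46 and 8.47 in nFoxA1Treg, 8.53, 8.48 and 8.51 in Treg, and 9.08, 8.75 and 8.94 in EncT. EncT stood between the arrays labelled iFoxA1Treg and both other groups, with no overlap. Sp100, a component of nuclear bodies, read 8.65, 9.05 and 8.99 on the arrays labelled iFoxA1Treg, 8.50, 8.47 and 8.46 in nFoxA1Treg, 8.53, 8.45 and 8.52 in Treg, and 8.48, 8.78 and 8.59 in EncT. Its values overlapped those of EncT, with a difference of 0.28 ± 0.10 (limma adjusted p 0.018) that lost the call with the values as deposited and without any 1 of EncT replicate 1 and replicates 2 and 3 of the arrays labelled iFoxA1Treg.

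Lgals3bp, which encodes a secreted galectin-binding glycoprotein, was the member that fell. It read 9.97, 9.95 and 10.12 on the arrays labelled iFoxA1Treg, 10.36, 10.40 and 10.58 in nFoxA1Treg, 10.49, 10.55 and 10.55 in Treg, and 10.34, 10.76 and 10.40 in EncT. The 3 arrays labelled iFoxA1Treg lay below the 9 others, and the difference from EncT was -0.49 ± 0.09 (limma adjusted p 4.1e-04). The remaining members rose against EncT by 0.68 (Nmi) to 6.64 (Rtp4), with Ifi35, a partner of Nmi, at 1.83, Xaf1, a pro-apoptotic factor, at 3.95, Tor3a at 2.59 and Phf11d at 2.06.

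In the 9 arrays that carry T cell markers the differences were far smaller. In nFoxA1Treg, 8 of the 38 members (21.1%) were lower than in EncT and 0 were higher, on a background of 11.2% of all genes called lower and 8.46% called higher (limma, adjusted p under 0.05). In Treg, 10 (26.3%) were lower than in EncT and 0 were higher, on a background of 10.3% lower and 6.23% higher. The median member difference was -0.14 in nFoxA1Treg and -0.20 in Treg, against 0.00 over all genes in both. The other 30 members in nFoxA1Treg and 28 in Treg did not pass. At an unadjusted p under 0.05, 15 members were lower and 0 higher in nFoxA1Treg, and 15 were lower and 1, Eif2ak2, higher in Treg. Of all 12609 genes, 2209 were lower and 1820 higher in nFoxA1Treg at that threshold, and 2217 and 1545 in Treg. In either direction these counts came to 39.5% of the members and 32% of all genes in nFoxA1Treg, and 42.1% and 29.8% in Treg. Both comparisons share the 3 EncT arrays, so their values are given side by side and are not independent. When the fit was repeated on these 9 arrays alone, 35 members passed the filter, of which 7 were lower in nFoxA1Treg than in EncT and 8 in Treg, beside 10.2% and 8.90% of all genes.

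**Figure D4:**
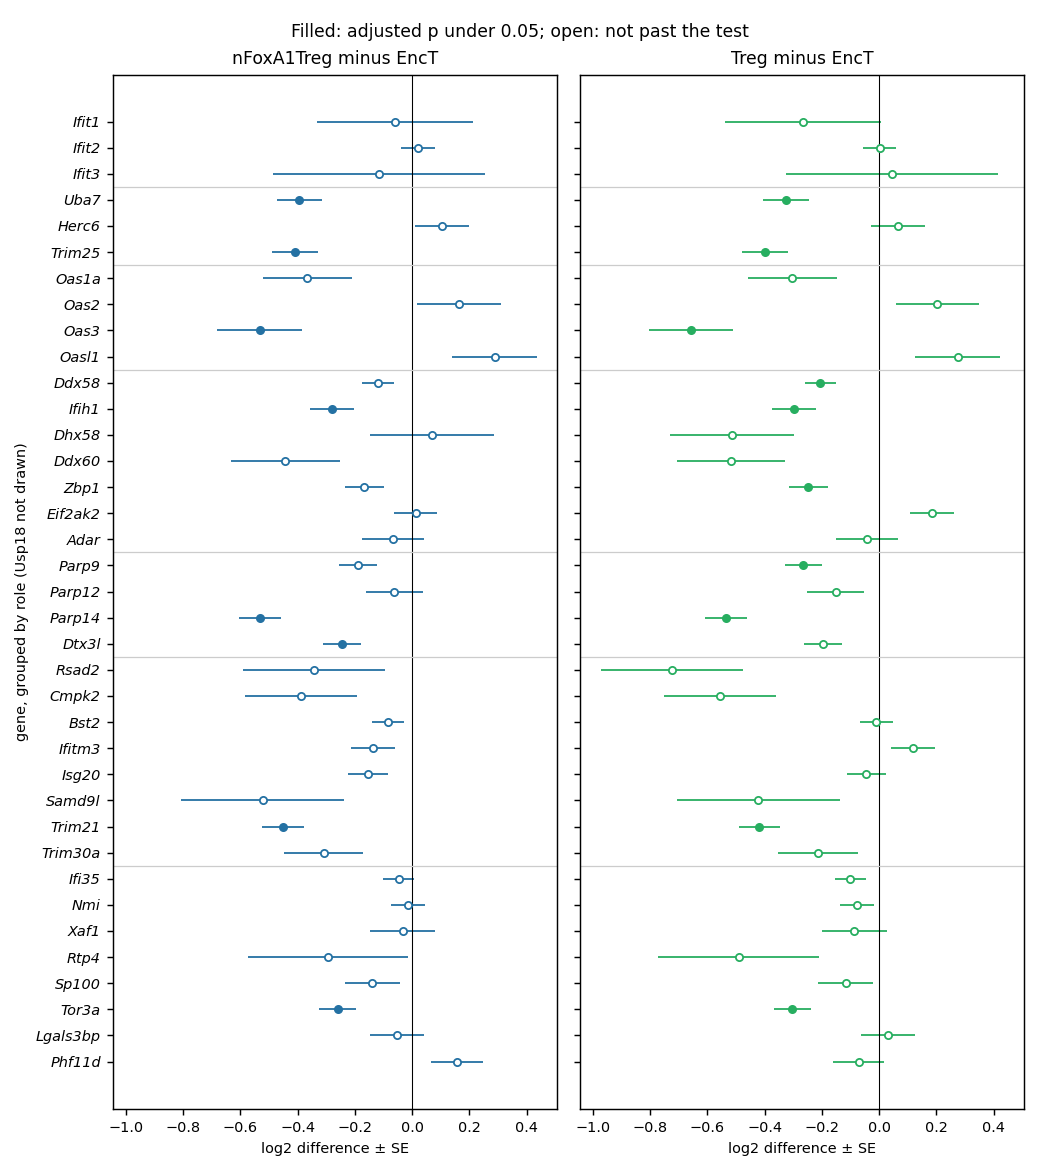
Log2 difference ± SE from EncT (x axis) for 37 tested members by role, nFoxA1Treg on the left and Treg on the right. Usp18 is left out for its floor value in EncT replicate 2. Filled points passed the test (adjusted p under 0.05), all of them left of 0, and open points did not.

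Parp14, which among other roles steers cytokine responses of lymphocytes, had the smallest adjusted p in both comparisons. It read 8.50, 8.45 and 8.44 in nFoxA1Treg and 8.50, 8.47 and 8.42 in Treg, against 9.15, 8.82 and 9.01 in EncT. All 6 Treg-type arrays lay below the 3 EncT arrays, by 0.53 ± 0.07 log2 units (1.45-fold) in each comparison (limma adjusted p 5.2e-04 for nFoxA1Treg and 7.1e-04 for Treg). A dimmer Parp14 probe set differed by -0.09 in nFoxA1Treg and -0.24 in Treg and did not pass. Parp9, encoded near it, read 8.94, 8.93 and 8.85 in nFoxA1Treg and 8.81, 8.82 and 8.86 in Treg, against 9.24, 8.95 and 9.09 in EncT. It lay below EncT on every array, by 0.27 in Treg (limma adjusted p 0.016) and by 0.19 in nFoxA1Treg, where it did not pass (limma adjusted p 0.058). Dtx3l, between both on the chromosome, read 9.27, 9.24 and 9.14 in nFoxA1Treg and 9.36, 9.25 and 9.18 in Treg, against 9.59, 9.34 and 9.45 in EncT. It passed in nFoxA1Treg at -0.25 (limma adjusted p 0.023) and not in Treg, where 1 array overlapped EncT, at -0.20 (limma adjusted p 0.065). The call of Dtx3l was lost under 6 of the 24 alternative settings, among them those without EncT replicate 1, nFoxA1Treg replicate 2 or nFoxA1Treg replicate 3, and that of Parp9 in Treg without Treg replicate 2. None of these 3 genes passed in nFoxA1Treg against Treg.

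Trim21 averaged 8.47 ± 0.01 in nFoxA1Treg and 8.50 ± 0.03 in Treg, against 8.92 ± 0.17 in EncT (SD, n = 3 each), and was lower by 0.45 in nFoxA1Treg (limma adjusted p 0.0013) and by 0.42 in Treg (limma adjusted p 0.0026). Its other probe set was lower as well, by 0.27 and 0.32, and passed in both. Trim25 read 7.87, 7.92 and 7.65 in nFoxA1Treg and 7.86, 7.81 and 7.80 in Treg, against 8.37, 8.09 and 8.21 in EncT. No array overlapped, and Trim25 was lower by 0.41 ± 0.08 in nFoxA1Treg and by 0.40 ± 0.08 in Treg (limma adjusted p 0.0038 and 0.0056), while its dimmest probe set differed by 0.04 in each. Uba7 read 7.79, 7.81 and 7.92 in nFoxA1Treg and 7.77, 8.05 and 7.91 in Treg, against 8.34, 8.26 and 8.11 in EncT. Its 3 probe sets were all lower and all passed, the brightest by 0.39 in nFoxA1Treg (limma adjusted p 0.0047) and by 0.33 in Treg (limma adjusted p 0.016). Parp14, Trim21 and Trim25 passed in both comparisons under all 24 alternative settings, including each single array left out, and Uba7 did so in nFoxA1Treg. In Treg the call of Uba7 was lost without EncT replicate 1, Treg replicate 1 or Treg replicate 3.

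Oas3 had the largest called difference in Treg. It read 5.94, 6.06 and 5.53 in nFoxA1Treg and 5.76, 5.46 and 5.93 in Treg, against 6.48, 6.28 and 6.37 in EncT. It lay below EncT on all 6 arrays, by 0.53 ± 0.15 in nFoxA1Treg (limma adjusted p 0.023) and by 0.66 ± 0.15, or 1.58-fold, in Treg (limma adjusted p 0.010). Without Treg replicate 2 the call in Treg was lost, and without nFoxA1Treg replicate 3, EncT replicate 1 or EncT replicate 3 the call in nFoxA1Treg was lost. The other family members did not pass: Oas1a differed by -0.37 in nFoxA1Treg and -0.30 in Treg, Oas2 by 0.16 and 0.20, and Oasl1, whose differences were the highest of the members above 0 apart from Usp18, by 0.29 and 0.27.

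Of the RNA sensors, Ifih1 read 7.17, 7.15 and 7.18 in nFoxA1Treg and 7.16, 7.11 and 7.17 in Treg, against 7.60, 7.24 and 7.49 in EncT. The 6 Treg-type values lay within a narrow band below EncT, lower by 0.28 and 0.30 (limma adjusted p 0.024 and 0.021). Ddx58 read 7.79, 7.91 and 7.79 in nFoxA1Treg and 7.76, 7.70 and 7.77 in Treg, against 7.95, 7.98 and 7.92 in EncT. It was below EncT on every array and passed in Treg at -0.21 (limma adjusted p 0.023), not in nFoxA1Treg at -0.12 (limma adjusted p 0.15). Zbp1 read 7.99, 8.12 and 8.02 in nFoxA1Treg and 8.03, 7.83 and 8.02 in Treg, against 8.33, 8.11 and 8.18 in EncT. It passed in Treg at -0.25 (limma adjusted p 0.028), not in nFoxA1Treg at -0.17, where 1 array overlapped EncT. A dimmer Zbp1 probe set differed by -0.11 in nFoxA1Treg and -0.21 in Treg and did not pass. The calls of these sensors held under 15 to 19 of the 24 alternative settings. Without the arrays labelled iFoxA1Treg, Ifih1 in nFoxA1Treg had an adjusted p of 0.053, Ddx58 in Treg 0.053 and Zbp1 in Treg 0.061 (limma). Ifih1 in both comparisons and Zbp1 in Treg also lost the call without EncT replicate 1 or EncT replicate 3.

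Tor3a, an interferon-induced ATPase of the endoplasmic reticulum, read 7.10, 7.28 and 7.31 in nFoxA1Treg and 7.18, 7.25 and 7.13 in Treg, against 7.49, 7.54 and 7.45 in EncT. It did not overlap with EncT and was lower by 0.26 and 0.30 (limma adjusted p 0.014 and 0.0080). The call in nFoxA1Treg was lost without nFoxA1Treg replicate 1, and the mean of all its probe sets passed in neither comparison. A dimmer probe set of Tor3a pointed the other way, at 0.56 and 0.85, without passing. Rsad2 in Treg had a larger difference than any called member, -0.72 ± 0.25, and did not pass (limma adjusted p 0.063). Treg replicate 1 at 3.29 stood below the other 2 at 4.21 and 4.23.

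The dim members were too few to be set apart from other dim genes. Of the 11 tested members with an EncT mean under 6 log2 units, 0 passed in either comparison (limma). Of all 4184 genes with an EncT mean that low, 5.35% passed in nFoxA1Treg and 4.73% in Treg, so 0 of 11 is near that share. At an unadjusted p under 0.05, 1 dim member was lower in nFoxA1Treg, and 4 were lower and 1 higher in Treg. At that threshold stood 32% and 29.8% of tested genes of all levels, and dim genes were not counted apart. The called members had EncT means of 6.38 to 9.46. Usp18, dim in all these groups, differed by 0.21 in nFoxA1Treg and 0.25 in Treg on the offset scale and did not pass.

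The counts of members called against EncT changed when single arrays were left out, of EncT and of the other groups. Over the members the median SD between replicates was 0.10 in nFoxA1Treg, 0.08 in Treg and 0.15 in EncT. EncT replicate 1 was the highest EncT array for 21 of the 35 members that pass the filter on the 9 arrays, and for 9 of the 11 called in any comparison among these groups. Samd9l, a brake on growth and translation in infected cells, read 8.63, 8.68 and 8.46 in nFoxA1Treg and 8.76, 8.64 and 8.67 in Treg, against 9.84, 8.16 and 9.33 in EncT, so that EncT lay on both sides and the gene did not pass. Without EncT replicate 1 the members called lower came to 5 in nFoxA1Treg and 7 in Treg, beside 8.55% and 7.51% of all genes, and the median in Treg to -0.072. Without EncT replicate 2 they came to 13 and 15, beside 12.5% and 12% of all genes, and Oasl1 was called higher in both. Without Treg replicate 2, 5 members were lower in Treg, beside 5.41% of all genes. Without nFoxA1Treg replicate 1, 6 were lower in nFoxA1Treg, beside 7.09%.
The macrophage and monocyte markers moved along: all 8 were measured, and their summed linear signal was 100.5 to 145.3 in nFoxA1Treg and 135.6 to 152.3 in Treg, against 207.1 to 242.1 in EncT, with Itgam and Mpeg1 below the filter level in all 3 groups. EncT replicate 1 had the highest sum of the EncT arrays. The summed dendritic cell markers ran the other way, at 164.1 to 213.0 in nFoxA1Treg and 196.0 to 202.5 in Treg, against 154.7 to 163.7 in EncT. That sum is mostly Ccr7, at 7.14 log2 units in nFoxA1Treg and 7.30 in Treg, against 6.76 in EncT, while Itgax averaged 3.11 in nFoxA1Treg and 3.23 in Treg, against 4.18 in EncT, and Flt3 and Siglech were below the filter level in all 3 groups. The part of either in the differences was not tested.

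**Figure D5:**
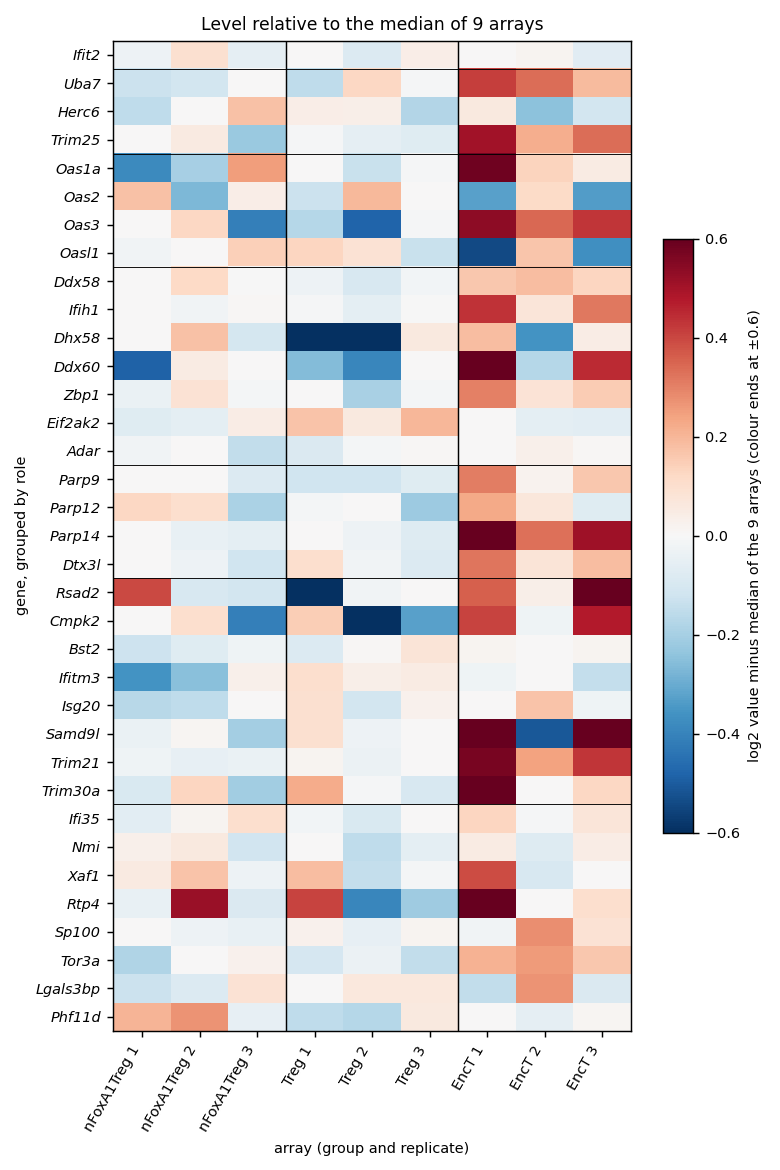
Log2 value minus the median of the 9 arrays (colour, ending at ±0.6) for the 35 members that pass the filter on them, by role (rows), in the 3 arrays each of nFoxA1Treg, Treg and EncT (columns). Parp14, Trim21, Trim25, Uba7 and Oas3 are red in all 3 EncT columns, and EncT replicate 1 has the highest value of the 9 arrays in 18 of the rows.

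Between nFoxA1Treg and Treg, 0 of the 38 members passed (limma, adjusted p under 0.05). Across all genes 1 did (0.00793%), Ttr, which encodes the carrier of thyroid hormone and retinol. At an unadjusted p under 0.05 there were 4 members (10.5%, beside 3.71% of all genes), Dhx58 and Phf11d higher and Eif2ak2 and Ifitm3 lower in nFoxA1Treg. The median member difference was 0.02. Without the arrays labelled iFoxA1Treg 0 of 35 members passed. The 95% interval of this difference ran from -0.16 to 0.16 for Parp14, -0.19 to 0.12 for Trim21, -0.18 to 0.16 for Trim25 and -0.24 to 0.10 for Uba7. The highest was Dhx58, which read 5.13, 5.31 and 5.03 in nFoxA1Treg, against 4.32, 4.21 and 5.19 in Treg. The groups overlapped through Treg replicate 3, at 0.58 ± 0.22 (95% interval 0.11 to 1.05, limma adjusted p 0.9997). The lowest was Ifitm3, at -0.25 ± 0.08 with no overlap (limma adjusted p 0.9997), which passed when nFoxA1Treg replicate 3 was left out (limma adjusted p 0.016). A difference anywhere among nFoxA1Treg, Treg and EncT was found for 10 members by the moderated F test, against 16.8% of all genes. Without the arrays labelled iFoxA1Treg it was found for 6 members, and the share of all genes was not counted.

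Many genes that carry the interferon signal were lower in both Treg types than in EncT. Of 18 measured genes in a list of 19 receptors, kinases, Stat and Irf factors and their inhibitors, 11 were lower in nFoxA1Treg and 10 in Treg, and 0 were higher (limma, with 0 higher also at an unadjusted p under 0.05), beside 11.2% and 10.3% of all genes called lower. Without the arrays labelled iFoxA1Treg, 9 (52.9%) and 8 (47.1%) of 17 were lower, beside 10.2% and 8.90% of all genes. The medians were -0.36 and -0.37. Socs1, the feedback inhibitor of Jak kinases, averaged 5.21 ± 0.19 in nFoxA1Treg and 5.38 ± 0.15 in Treg, against 6.36 ± 0.22 in EncT (SD, n = 3 each), and fell by 1.15 (limma adjusted p 3.4e-04) and 0.98 (limma adjusted p 0.0012). Irf1, an activator at ISRE sites, was lower by 0.59 and 0.62, and Irf2, its antagonist, by 0.41 and 0.43. Irf9 was lower by 0.65 and 0.61, and Stat2 by 0.46 in Treg, where it passed, and by 0.36 in nFoxA1Treg, where it did not. Irf7, the factor that amplifies the interferon response, read 6.41, 6.31 and 6.21 in nFoxA1Treg and 6.35, 6.03 and 6.28 in Treg, against 6.64, 6.42 and 6.68 in EncT. No array overlapped EncT, and it passed in Treg at -0.36 (limma adjusted p 0.025), not in nFoxA1Treg at -0.27 (limma adjusted p 0.071). Without the arrays labelled iFoxA1Treg it did not pass in Treg either (limma adjusted p 0.058).

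On the arrays labelled iFoxA1Treg, 13 of these 18 signalling genes (72.2%) were higher than in EncT and 4 (22.2%) were lower, beside 33.9% and 38.3% of all genes. Ifngr2, among the 13, passed the filter through the arrays labelled iFoxA1Treg alone and so had to be higher there. Irf7 read 11.21, 11.30 and 11.34 there, above every other array, at 4.71 ± 0.10 over EncT (limma adjusted p 1.5e-13). The 4 were Tyk2, which serves the type I receptor, lower by 0.98, Ifngr1 by 0.39, Jak2 by 0.24 and Stat3 by 0.15, and Ifnar2 was higher by 1.66 while Ifnar1 differed by -0.01 and did not pass.

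Of 10 tested genes among 13 sensor adaptors and kinases, 2 were higher and 4 lower in nFoxA1Treg than in EncT, and 1 higher and 3 lower in Treg, where of all genes 8.46% were higher and 11.2% lower in nFoxA1Treg and 6.23% and 10.3% in Treg. Sting1, which relays cytosolic DNA signals, averaged 9.16 ± 0.01 in nFoxA1Treg and 9.24 ± 0.05 in Treg, against 9.55 ± 0.04 in EncT (SD, n = 3 each), lower by 0.39 (limma adjusted p 1.8e-04) and 0.31 (limma adjusted p 0.0011). It was lower by 1.02 on the arrays labelled iFoxA1Treg as well. Ticam1, the adaptor of Tlr3, was lower by 0.43 and 0.53, and Tbk1, the kinase of Irf3, by 0.19 and 0.17. Ikbke, a related kinase, was lower by 0.50 in nFoxA1Treg. Cgas, the DNA sensor upstream of Sting1, was higher by 0.52 in nFoxA1Treg and 0.47 in Treg, and Traf6 by 0.34 in nFoxA1Treg. Without the arrays labelled iFoxA1Treg the counts in nFoxA1Treg were the same, beside 7.95% of all genes higher and 10.2% lower. In Treg 2 were lower, beside 8.90% of all genes, and Cgas did not pass (limma adjusted p 0.051).

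In a list of 36 further interferon-induced genes, 30 were tested, of which 1 was higher and 10 lower in nFoxA1Treg than in EncT, and 1 higher and 5 lower in Treg, on the same backgrounds. Irgm2, a GTPase against vacuolar pathogens, averaged 6.99 ± 0.16 in nFoxA1Treg and 7.14 ± 0.08 in Treg, against 8.26 ± 0.41 in EncT (SD, n = 3 each), lower by 1.27 (limma adjusted p 2.4e-04) and 1.12 (limma adjusted p 7.1e-04). Trim34a was lower by 0.58 and 0.49, and Tdrd7, an inhibitor of autophagy induced by interferon, by 0.68 in nFoxA1Treg. The GTPase genes Igtp and Gbp2 and the gene Ifi27l2a completed the 5 in Treg, at -0.41, -0.31 and -0.25. The chemokine gene Cxcl10 was the gene that rose: it read 3.55, 5.04 and 5.09 in nFoxA1Treg and 6.10, 6.17 and 6.24 in Treg, against 3.60, 3.16 and 3.82 in EncT. Treg stood above EncT by 2.64 ± 0.31 (limma adjusted p 3.5e-04), while nFoxA1Treg replicate 1 lay among the EncT values and the group was higher by 1.04 (limma adjusted p 0.034). All EncT values and nFoxA1Treg replicate 1 lay below the filter level of 4.05 log2 units, so the size of both differences rests on dim values. Without the arrays labelled iFoxA1Treg, 10 were lower in nFoxA1Treg (33.3%, beside 10.2% of all genes) and 3 in Treg (10.0%, beside 8.90%). Cxcl10 then passed in Treg and not in nFoxA1Treg (limma adjusted p 0.058). On the arrays labelled iFoxA1Treg, 26 of the 30 were higher than in EncT and 3 lower, beside 33.9% and 38.3% of all genes. Ifitm2 and Ifitm1, relatives of Ifitm3, were lower there by 3.49 and 2.13 and Ifi27 by 0.91, where Helz2 was higher by 2.50 and Ifi47 by 2.53.

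Of 10 interferon genes, 2 passed the filter. Ifng, the type II interferon, averaged 5.29 ± 0.18 on the arrays labelled iFoxA1Treg, 7.78 ± 0.17 in nFoxA1Treg and 7.69 ± 0.08 in Treg, against 7.91 ± 0.16 in EncT (SD, n = 3 each). It was lower by 2.63 on the arrays labelled iFoxA1Treg (limma adjusted p 1.9e-10) and did not pass in nFoxA1Treg or Treg. Ifna9 read 4.01, 3.29 and 3.55 on the arrays labelled iFoxA1Treg and 4.11 to 4.87 on the others. It differed there by -0.999 from EncT, -0.93 from Treg and -0.82 from nFoxA1Treg. Each of these differences passed (limma, adjusted p under 0.05), and Ifna9 did not pass in nFoxA1Treg or Treg against EncT. All arrays labelled iFoxA1Treg lay below the filter level for Ifna9, so the size of these differences rests on dim values. Ifnb1, which encodes the inducer named in the titles, was not tested, as its mean over the 12 arrays lay below that level. It read 5.22, 4.97 and 5.15 on the arrays labelled iFoxA1Treg, 4.19, 1.99 and 3.72 in nFoxA1Treg and 3.16, 4.16 and 3.27 in Treg, against 3.43, 3.27 and 3.09 in EncT.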

How the data were processed

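Total RNA of 12 samples was measured on Affymetrix Mouse430_2 arrays. The authors deposited log2 values per probe set, made with PLIER per the submitters' processing notes. Its version and between-array normalization were not given in the sources used here. Base 2 was inferred from the highest value of each array, 13.70 to 15.66. The number of arrays limits the precision.

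Samples were grouped by their titles. Probe sets were named from the platform annotation: of 45037, 34945 had 1 gene, 932 several and 9160 none. Array medians spanned 0.20 log2 units, so quantile normalization was applied. The filter kept the brighter 60% of probe sets by mean (4.05 log2 or above), and the brightest probe set naming 1 gene stood for that gene. The test was limma 3.58.1 (R 4.3.3, 1 mean per group over 12 arrays, 8 residual degrees of freedom, eBayes with an intensity trend, two-sided, Benjamini-Hochberg over 12609 genes per comparison), after a check on simulated data. Every difference is the first-named group minus the second, and SE is that of a log2 difference.

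The members, lists and comparisons were chosen with earlier results of these data known. Values on every array are given for members called among nFoxA1Treg, Treg and EncT, those with the 2 largest differences each way there, the 5 largest and 5 smallest differences of the arrays labelled iFoxA1Treg from EncT, Isg15, Ifit1 and Irf7. Of other lists, genes with the smallest adjusted p are named, most of the top 3 of each comparison. Samd9l, Ifit2, Eif2ak2, Phf11d, Ttr and some genes of small counts in other lists were named after their values were seen. Alternatives changed the scaling, filter, offset, trend, weights, arrays and probe set choice.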

Additional observations from a re-analysis of the deposited data

How the results depend on the processing

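Over 24 settings, 5108 of 5208 values of single genes kept their direction and side of the threshold, 44 gained and 52 lost the call, and 4 turned. Those 4 were Tor3a in Treg against EncT, 0.084 with the mean of all probe sets (limma adjusted p 0.85), Adar on the arrays labelled iFoxA1Treg with the same mean, 0.57 against EncT and 0.60 against Treg, and Adar against Treg with 1 of those arrays left out, -0.093 to 0.16 (the highest without replicate 1). The means differ because probe sets of these genes disagree.

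Array weights gave 14 members lower and 2 higher in nFoxA1Treg against EncT, beside 20.8% of all genes lower and 16.7% higher (4721 genes called). In Treg against EncT they gave 16 lower and 3 higher, beside 19.2% and 14.1% of all genes (4196 genes called). They also gave 10 genes in nFoxA1Treg against Treg, and 20 members by the F test. Fits on only the 6 arrays compared gave 4 lower in nFoxA1Treg (1229 genes called) and 5 lower in Treg (1140 genes called). Of all genes, 5.88% and 6.1% were lower in these fits. In nFoxA1Treg against Treg, where 1 gene was called, there were 4 with no filter, 0 with the upper 40% of probe sets, 2 each with log2(value + 16), the mean of probe sets and the replicate block. The F test called 6 members without an intensity trend, 6 without the arrays labelled iFoxA1Treg and 6 on those 9 arrays with the brightest probe set chosen on them, an alternative added after seeing the data. For the F test all genes were counted in the main fit alone, so its member counts under other settings have no share beside them. The cause of these changes was not tested.

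The median member difference of the arrays labelled iFoxA1Treg was 2.22 as deposited and 2.12 with the upper 40% against EncT. Against Treg it was 2.75 with centred medians, 2.54 with the upper 40%, 2.59 with log2(value + 16) and 2.55 with the mean of probe sets. Against nFoxA1Treg it was 2.59 as deposited, 2.60 with log2(value + 16) and 2.54 with the mean of probe sets. With the values as deposited the median of all genes shifted to -0.18 in the comparison with EncT.

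Leaving out 1 array at a time gave 5 to 13 members lower and 0 to 1 higher in nFoxA1Treg against EncT, 5 to 15 lower and 0 to 1 higher in Treg against EncT, and 0 to 1 lower in nFoxA1Treg against Treg. All genes called came to 1513 to 3011, 1016 to 2713 and 1 to 11 in these comparisons. The median in Treg against EncT was -0.25 to -0.072, and that of the arrays labelled iFoxA1Treg against EncT 2.25 to 2.49. The F test called 5 to 13 members, with all genes not counted. Replicate numbers were not taken as pairs, and the labels do not say whether they are. Same-numbered deviations correlated at -0.16 to 0.17 over 18 pairs, 2 of them over 0.1. Between EncT and Treg the same-numbered arrays correlated at 0.17, 0.13 and 0.09, and the others at -0.12 to -0.01. Between nFoxA1Treg and either EncT or Treg all same-numbered values were negative. With the replicate block 8 members were lower in nFoxA1Treg and 11 in Treg, against EncT, beside 10.5% and 9.25% of all genes.

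With 3 arrays a group, a missed test does not show equal levels. Dim members rest on values near the floor, and fold changes there depend on the noise. The arrays labelled iFoxA1Treg carry markers of other cells, whose part in their differences was not tested.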
